A study of Mus musculus with 2 samples.

Results

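T cells were picked out of mononuclear cells of mouse muscle by their transcripts. A cell barcode counted as a T cell when it held at least 1000 unique molecular identifiers (UMIs, counted RNA molecules), at most 25% mitochondrial UMIs and at least 2 UMIs of Cd3d, Cd3e and Cd3g together, with 0 UMIs of the NK cell gene Ncr1 and of the fibroblast gene Pdgfra and fewer than 3 of the B cell genes Cd79a and Cd79b. This gave 185 of 7658 barcodes, 123 of 5159 in quadriceps, a limb muscle, and 62 of 2499 in diaphragm, the muscle of breathing. There was 1 droplet library per muscle, made from C57BL/6J mice with no treatment named. In all 10 mice were used, several muscles were pooled per library, the tissue was digested with collagenase and dispase, cells were taken from a Lympholyte-M gradient interface, and viable cells were sorted by light scatter. Age and sex were not given in the labels. With 1 library per muscle there was no replicate, so no test between muscles was possible, and muscle, animals and library cannot be told apart.

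T cells carry an antigen receptor whose signal passes through the CD3 chains. CD8 T cells read peptides on MHC class I and can kill target cells, while CD4 T cells read MHC class II and help other immune cells. Naive cells circulate between blood and lymphoid organs with the homing receptor Ccr7 and the transcription factors Lef1 and Tcf7. Cells that stay in tissues tend to lose these and to carry adhesion and chemokine receptors such as Cd44 and Cxcr6. T cells that make interleukin 17 are found in many tissues, and gamma delta T cells are among them.

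The T cells made up 2.65% (95% exact binomial interval 2.21% to 3.16%) of the 4635 quadriceps barcodes within the UMI and mitochondrial limits and 2.62% (2.01% to 3.34%) of the 2370 in diaphragm. They held a median of 5065 UMIs and 1456 genes in quadriceps and 5496 UMIs in diaphragm, below the library medians of 9719 and 11853 UMIs. In quadriceps 95 of 123 T cells (77.2%) and in diaphragm 49 of 62 (79.0%) were above a mitochondrial share of 5%, while 3 in each muscle were above 10%. A 5% limit thus takes most T cells out of both libraries. Levels are given as counts per 1e+06 UMIs (CPM), taken over all cells of a class together, with 95% exact Poisson intervals. All intervals cover counting error only, not the spread between animals or libraries.

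The rule chose the cells by Cd3d, Cd3e and Cd3g, so these genes describe the cells and support nothing. The summed UMIs of the 3 genes had a median of 11 per quadriceps T cell with a range of 2 to 28, and of 10.5 per diaphragm T cell with a range of 3 to 51. At the edge of the rule, 1 quadriceps cell held exactly 2 such UMIs, and 3 quadriceps and 2 diaphragm barcodes with exactly 1 stayed out. Among barcodes with 2 or more, Pdgfra kept out 2 in quadriceps and 3 in diaphragm, Ncr1 kept out 2 in quadriceps, and Cd79a and Cd79b kept out 1 in diaphragm. Few cells were thus close to the limits of the rule.

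Markers that the rule did not use fit T cells in both libraries. Ptprc, the leukocyte antigen CD45, had a UMI in 111 of 123 quadriceps and 60 of 62 diaphragm T cells. In fibro-adipogenic progenitors (FAPs, the connective tissue cells of muscle, taken here as barcodes with 3 or more Pdgfra UMIs), 23 of 1872 and 6 of 1813 had one, although their median depth was higher at 10864 and 12618 UMIs. Il7r, the interleukin 7 receptor, was at 668 CPM (607 to 733) in quadriceps T cells and 649.8 CPM (569 to 739) in diaphragm T cells, against 0.325 and 0.0430 CPM in FAPs. It had a UMI in 97 of 123 and 49 of 62 T cells, and in 3 and 1 FAPs. Lef1 had a UMI in 88 of 123 and 22 of 62 T cells, and in 4 and 2 FAPs. Free RNA from T cells, as read in FAPs, was therefore far below these levels.

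On GRCm38, Cd3g, Cd3d and Cd3e lie side by side on chromosome 9, from 44969572 to 45009627. Cd8b1 (chromosome 6, 71322788 to 71337494) and Cd8a (71373427 to 71379173) are neighbours as well, and Cd4 lies further along at 124864692 to 124888221. The level of Cd3d was 798 CPM (731 to 869) in quadriceps T cells and 633 CPM (554 to 721) in diaphragm T cells. Cd3e stood at 410.3 CPM (363 to 462) and 530.4 CPM (458 to 611), and Cd3g at 852 CPM (783 to 925) and 1130.1 CPM (1023 to 1245). The receptor chain Cd247, which the rule did not use, was at 204 CPM (171 to 241) and 158 CPM (119.9 to 205). The constant genes of the receptor chains themselves were not analysed here, so cells could not be sorted by receptor type.

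Genes of other cell types were counted without Pdgfra, Ncr1, Cd79a and Cd79b, which the rule itself kept low. Their levels were low in the T cells, with 1 exception that rested mostly on 2 cells. Summed over the other 9 FAP genes, T cells held 514 CPM in quadriceps and 605 CPM in diaphragm against 77840 and 74086 CPM in FAPs. Low as it was, this signal was widespread, with a UMI in 111 of 123 quadriceps and 62 of 62 diaphragm T cells. The other 6 NK cell genes summed to 60.3 and 33.3 CPM, against 9154 and 5379 CPM in cells with Ncr1. Of the B cell list, Ms4a1 and Pax5 had 0 UMIs in T cells. Myeloid genes to 155 and 133 CPM and endothelial genes to 54.3 and 30.5 CPM. Csf1r, C1qa and Pax7, which define macrophages and satellite cells, had 0 UMIs as well. The exception was smooth muscle, whose 6 genes summed to 3806 CPM in quadriceps T cells and to 16.7 CPM in diaphragm T cells. Of the 2523 UMIs behind the quadriceps value, 1597 (63.3%) lay in 1 CD8 cell of 27314 UMIs, the deepest T cell of either library, and 637 in a second CD8 cell of 14405 UMIs, yet 109 of 123 quadriceps T cells held at least 1. In diaphragm 6 such UMIs lay in 5 cells. A doublet caller (Scrublet) marked 2 quadriceps T cells and 0 diaphragm T cells, and since it marked 3 of 2499 diaphragm barcodes in all (0.12%) it gave no working call there. The libraries shared 5 barcodes, 1 of them a diaphragm T cell.

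Within each muscle the T cells were split by their co-receptor UMIs, with the name CD8 given to cells holding Cd8a or Cd8b1 and no Cd4, and CD4 to cells holding Cd4 and neither Cd8 gene. Quadriceps had 64 CD8 cells (52.0%, 42.8% to 61.1%), 22 CD4 cells (17.9%, 11.6% to 25.8%), 3 cells with both and 34 with neither (27.6%, 20% to 36.4%). Diaphragm had 19 CD8 cells (30.6%, 19.6% to 43.7%), 7 CD4 cells (11.3%, 4.66% to 21.9%), 0 with both, which allows a share of up to 4.84%, and 36 with neither (58.1%, 44.8% to 70.5%). CD8 cells were the larger of the co-receptor classes in both muscles, at 74.4% of CD8 and CD4 cells in quadriceps and 73.1% in diaphragm. CD8 was called from either Cd8 gene and CD4 from Cd4 alone, so these shares also depend on how often each was detected. The share without any co-receptor UMI was higher in the diaphragm library, with no overlap of the intervals, which cover counting error within a library only.

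Co-receptor calls depend on depth, and Cd4 is a gene of few UMIs, so each cell was also thinned to 1000 UMIs. At that depth the cells with neither were 71 of 123 in quadriceps (57.7%, 48.5% to 66.6%) and 49 of 62 in diaphragm (79.0%, 66.8% to 88.3%). The diaphragm share was again the higher one, in a single draw from the same cells. CD8 cells numbered 43 and 11, and CD4 cells 9 and 2. Cd4 in the CD4 cells was at 309 CPM (207 to 443) in quadriceps and 299 CPM (129 to 589.5) in diaphragm, so a cell of 1000 UMIs often shows none. The class of cells with neither can therefore hold CD4 cells whose Cd4 was missed.

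**Figure D1:**
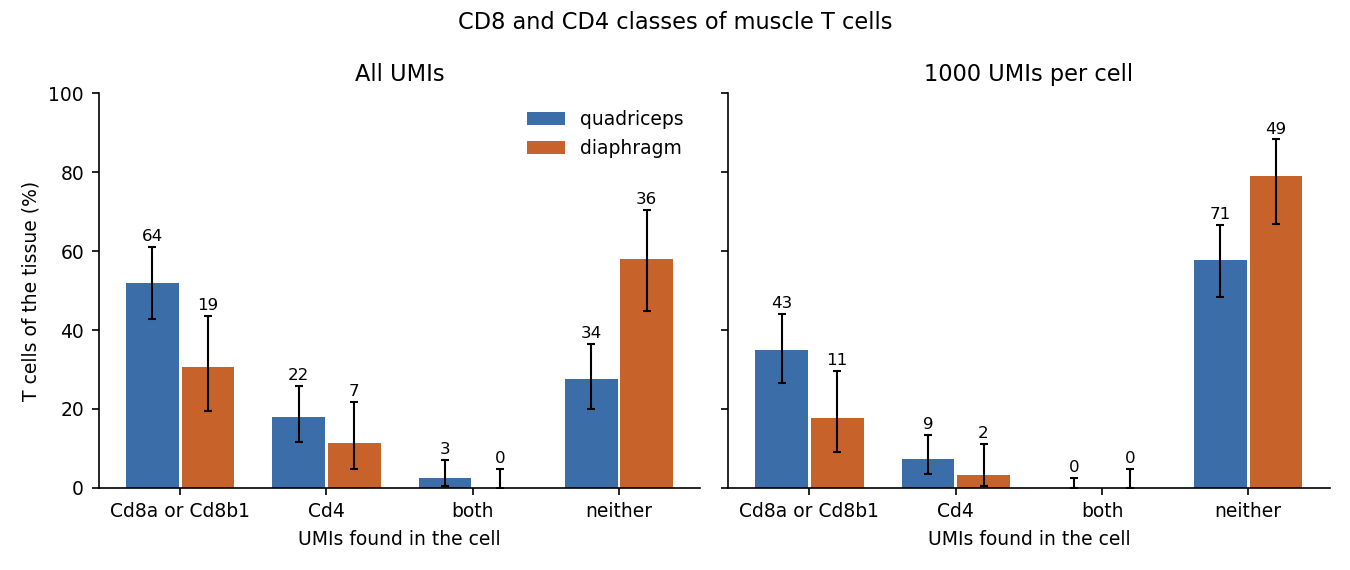
Share of the T cells of each muscle (y axis, percent) by the co-receptor UMIs found in the cell (x axis), from all UMIs on the left and after thinning each cell to 1000 UMIs on the right; numbers over the bars are cells and error bars are 95% exact binomial intervals. Cells with neither made up 27.6% of quadriceps and 58.1% of diaphragm T cells from all UMIs, and 57.7% and 79.0% after thinning.

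CD8 and CD4 cells were first compared within each muscle. A gene was counted when it was past 2-fold in the same direction in both muscles, on the scale log2(CPM + 10), out of 981 genes that reached 100 CPM in the class where they were higher and had a UMI in at least 10 T cells. In CD8 cells 14 genes (1.43%) were higher and 15 (1.53%) lower. Cd8a, Cd8b1 and Cd4 chose the classes and head these lists by construction. Both classes share their library, and the CD4 cells of diaphragm were 7 cells with 26738 UMIs, in which 1 UMI was worth 37.4 CPM.

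After the Cd8 genes, Ly6c2 and Plac8, the genes furthest higher in CD8 cells were Ccl5, Ctsw and Nkg7, of the cytotoxic and effector list. Ccl5, a chemokine of memory and effector CD8 cells, was at 2567 CPM (2408 to 2733) in quadriceps CD8 cells and 7842 CPM (7339 to 8371) in diaphragm CD8 cells. In diaphragm 80.1% of its UMIs lay in 2 of the 19 cells, and without the 2 cells with the most it was at 1744 CPM (1613 to 1883) in quadriceps and 1743 CPM (1498 to 2017) in diaphragm. In CD4 cells it had 0 UMIs in quadriceps, at least 80.4-fold lower, and 711 CPM in diaphragm from 1 cell. Nkg7, a granule protein, was at 546 CPM (475 to 626) and 633 CPM (496 to 796) in CD8 cells, and at 0 and 112 CPM in CD4 cells. Ctsw, a protease of cytotoxic cells, was at 213 and 208 CPM in CD8 cells and at 10.6 and 0 CPM in CD4 cells. All 3 members of the cytotoxic list that passed the minimum in both muscles were thus higher in CD8 cells. The list has 20 members, and most were too low to be compared.

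Ly6c2, a surface protein of memory-type CD8 cells, and Plac8 were found in CD8 cells alone of these classes. Ly6c2 was at 265 CPM (216 to 322) in quadriceps CD8 cells and 521 CPM (397 to 670.0) in diaphragm CD8 cells, with 0 UMIs in CD4 cells of either muscle. This makes it at least 8.31-fold higher in quadriceps and at least 4.64-fold higher in diaphragm. Plac8 was at 105 and 130.1 CPM in CD8 cells and at 0 in CD4 cells. Rock1, 5730508B09Rik and Slbp completed the first 10 genes. Ly6c2 is close in sequence to Ly6c1, so reads may be split between them.

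In CD4 cells, Cd28 and Dgka, a co-stimulatory receptor and a lipid kinase that dampens receptor signals, were higher than in CD8 cells. Cd28 was at 426 CPM (304 to 579.7) in quadriceps and 1122 CPM (757 to 1602) in diaphragm CD4 cells, against 168 and 321 CPM in CD8 cells. Dgka was at 309 and 224 CPM in CD4 cells against 118 and 43.4 CPM in CD8 cells. Tspan32, a tetraspanin of leukocytes, was at 234 CPM in quadriceps CD4 cells against 15.8 CPM in CD8 cells. In diaphragm the same pair was 112 and 26 CPM from 3 UMIs in each class, with a ratio of CD8 to CD4 between 0.0311 and 1.73. By fold, Ly6a, Tspan32, Ppdpf, Hspb11 and Skil ranked ahead of Dgka and Cd28, and Col3a1 and Zfp638 followed, several from few UMIs. Col3a1 is on the list of FAP genes. Cd40lg, the helper ligand of CD4 cells, had 0 UMIs in CD8 cells of both muscles and was at 95.8 and 337 CPM in CD4 cells, where 7 of 22 and 5 of 7 cells had a UMI.

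Of 10 naive and recirculating genes that passed the minimum in both muscles, 0 were past 2-fold in the same direction in both. Of all 981 genes 1.43% were higher and 1.53% lower in CD8 cells. With shares this low, 0 of 10 does not set naive genes apart from other genes. Lef1 was at 347 CPM (290.2 to 411) in quadriceps and 382 CPM (277 to 512) in diaphragm CD8 cells. In CD4 cells it was at 553 CPM (413 to 726) and 524 CPM (286 to 879). It was thus present at like levels in both muscles, and highest in the CD4 cells.

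The CD8 cells were also split by Ccl5, a division chosen after its values were seen, into 15 quadriceps and 11 diaphragm cells with a Ccl5 UMI and 49 and 8 without. With Ccl5, Ly6c2 was at 615 CPM (467 to 796) in quadriceps and 820.1 CPM (618 to 1067) in diaphragm, and without it at 150.1 CPM (109 to 202) and 104 CPM (33.7 to 242). Nkg7 was at 1273 and 909.6 CPM with Ccl5 and at 307 and 249 CPM without. Ifng, the cytokine interferon gamma, was at 403 and 313 CPM with Ccl5 and had 0 UMIs without it. Lef1 went the other way, at 202 and 149 CPM with Ccl5 and 395 and 705 CPM without. As CPM, the CD8 cells with Ccl5 thus held more effector transcript and less Lef1 than those without in both muscles. The 2 quadriceps CD8 cells rich in smooth muscle UMIs, of 27314 and 14405 UMIs, held 8.19% of the Ccl5 UMIs of their class. At least 1 of them was therefore in the quadriceps set with Ccl5, which summed to 94236 UMIs. How far they lower the Lef1 level of that set was not tested. The split did not part the cells by naive genes, since 10 of the 15 and 7 of the 11 cells with Ccl5 also held Lef1 or Ccr7. Because the cells were split on a gene of the same cells, these values are a description.

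Granzyme A came from very few cells. Gzma, a protease of killer cells, had a UMI in 5 of 123 quadriceps T cells and in 1 of 62 diaphragm T cells, so its levels of 140.3 and 211 CPM over all T cells rest on those cells. Of the 15 quadriceps CD8 cells with Ccl5, 4 held it. The share of CD8 cells with a Ccl5 UMI was 15 of 64 in quadriceps and 11 of 19 in diaphragm. In FAPs of the same libraries 24 of 1872 and 8 of 1813 cells had a Ccl5 UMI.

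Cells with neither co-receptor were compared with CD8 cells in the same way, a comparison chosen after the size of this class was seen. Of 1091 genes, 61 (5.59%) were higher and 8 (0.733%) lower in cells with neither in both muscles. S100a4, a calcium-binding protein of memory and motile cells, was at 1642 CPM (1455 to 1847) in quadriceps and 3699.7 CPM (3449 to 3964) in diaphragm cells with neither. In CD8 cells it was at 102 CPM (72.9 to 140.1) and 286 CPM (197 to 402), so the ratio was 16 (11.4 to 23) in quadriceps and 12.9 (9.13 to 18.9) in diaphragm. S100a6, its relative, was at 2374 and 3869 CPM against 213 and 312 CPM. FAPs also express both, with S100a4 at 464 and 27.6 CPM and S100a6 at 6177 and 3058 CPM, while the FAP genes other than Pdgfra summed to 478 and 578 CPM in cells with neither.

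The gene that led this comparison was Tmem176b, a membrane protein found in type 17 T cells, at 360.3 CPM (276 to 463) and 1009 CPM (879.7 to 1151) in cells with neither and at 0 UMIs in CD8 cells. This is at least 45.7-fold higher in quadriceps and at least 38.8-fold higher in diaphragm. Its neighbour Tmem176a was at 408 and 1146 CPM against 26.3 and 0 CPM. Cd163l1, a scavenger receptor known from gamma delta T cells, was at 154 CPM (100.3 to 225) and 633 CPM (532 to 747) against 0 and 8.68 CPM. Blk, a kinase of B cells and of interleukin 17 producing gamma delta T cells, was at 118 and 206 CPM against 2.63 and 0 CPM. Il2ra, a chain of the interleukin 2 receptor, was at 100.4 and 133 CPM against 0 UMIs. Ccr2, a chemokine receptor of inflamed tissue, was at 319 and 440.1 CPM against 21 and 17.4 CPM, and Capg, an actin-capping protein, at 337 and 596 CPM against 5.25 and 43.4 CPM. Serpinb1a, a protease inhibitor, was at 106 and 266 CPM and had 0 UMIs in CD8 cells.

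By list, all 4 tested type 17 genes (Cd163l1, Blk, Maf and Il18r1) and 7 of 13 tested residence genes were higher in cells with neither in both muscles. The 7 residence genes were S100a4, S100a6, Cxcr6, Cd44, Lgals1, Ahnak and Id2. All 3 tested members of the regulatory T cell list, Il2ra, Ikzf2 and Capg, were higher as well. However, Foxp3, the factor that defines regulatory T cells, had 0 UMIs in all 185 T cells, as had Ikzf4, Tigit and Il10, which allows a share of cells with a UMI of up to 2.44% in quadriceps and 4.84% in diaphragm. Of the cytotoxic list Klrk1, an activating receptor, was higher. Cd3g, used by the rule, was at 1009.9 and 1449 CPM in cells with neither and at 730.4 and 564 CPM in CD8 cells. The lower genes were Cd8a and Cd8b1 by construction, and 5730508B09Rik, Epsti1, Gtf2i, Plac8 and Actn1 among others. Epsti1, an interferon-induced gene, was at 100.4 and 91.7 CPM against 370.4 and 338 CPM in CD8 cells.

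**Figure D2:**
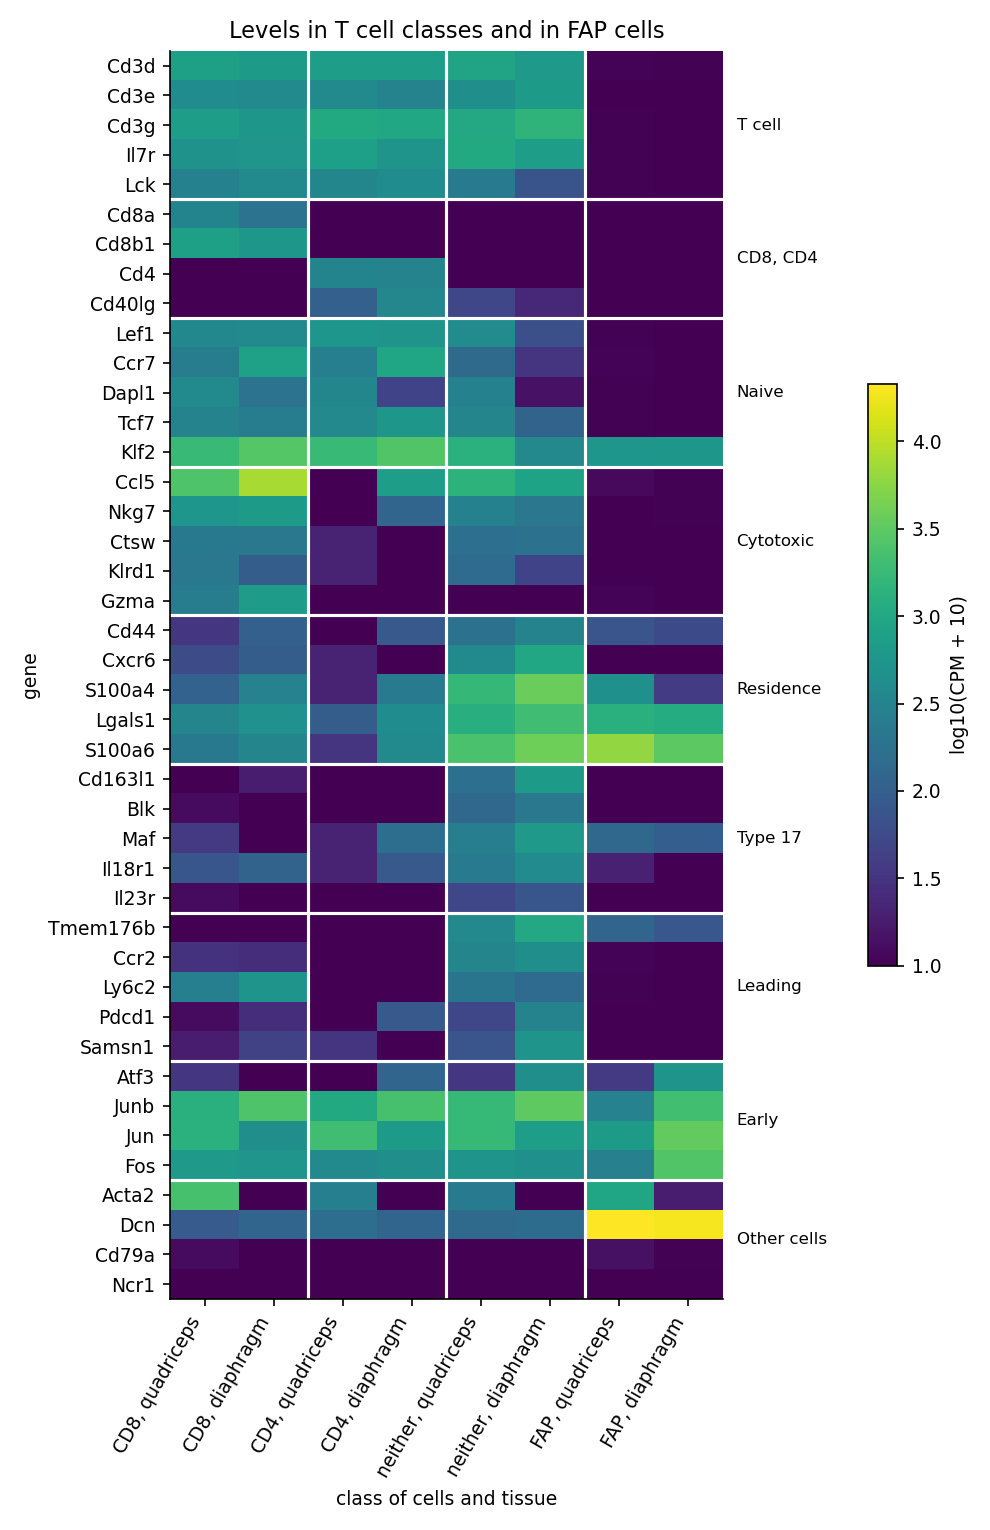
Level of each gene (rows, grouped by list) in CD8, CD4 and neither cells and in FAPs of each muscle (columns), as log10(CPM + 10) in colour; the group "Leading" holds genes named for their folds and "Early" immediate early genes. Tmem176b and Cd163l1 stand out in the cells with neither, Ccl5 in the CD8 cells, and Acta2 in the quadriceps columns.

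The cells with neither fell into sets with little overlap. A naive set (a UMI of Lef1 or Ccr7) and a type 17 set (a UMI of Cd163l1, Blk, Sox13, Il23r or Il17a) were chosen after these genes had been seen. In quadriceps 21 of 34 cells held a naive gene, 10 a type 17 gene, 0 both and 3 none of them. In diaphragm 5 of 36 held a naive gene, 23 a type 17 gene, 0 both and 8 none. No cell with neither co-receptor thus held genes of both sets. Most of these cells were of the naive set in quadriceps and of the type 17 set in diaphragm.

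In the other classes type 17 genes were rare. A type 17 gene was found in 2 of 64 quadriceps and 2 of 19 diaphragm CD8 cells and in 0 CD4 cells, while a naive gene was found in 54 of 64 and 15 of 19 CD8 cells and in 20 of 22 and 4 of 7 CD4 cells. Over all T cells 98 of 123 in quadriceps and 24 of 62 in diaphragm held a naive gene. A type 17 gene was held by 12 and 25. The type 17 calls rarely rested on 1 gene: all 23 diaphragm cells with neither held at least 2 of the 5 genes, and in quadriceps 8 of 10 did, with 2 holding 1.

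Blk had a UMI in 9 of the 10 quadriceps and 19 of the 23 diaphragm cells of the type 17 set. Cd163l1 was in 5 and 20 of them, Il23r, the interleukin 23 receptor, in 5 and 12, and Sox13, a factor of gamma delta T cells, in 1 and 13. Il17a itself had a UMI in 1 quadriceps and 5 diaphragm cells, and Il17f had 0 UMIs in both. The receptor and factor genes of type 17 cells were therefore seen in more cells than the cytokine.

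Cells of the type 17 set were alike in some genes across the muscles, named here after their values were seen. S100a4 had a UMI in every one of them, at 4912 CPM (4328 to 5552) in quadriceps and 4970.5 CPM (4618 to 5343) in diaphragm. Cxcr6 was at 1017 CPM (762 to 1330.1) and 1325 CPM (1146 to 1525), again with a UMI in all 10 and all 23 cells. Tmem176a was at 1247 and 1555 CPM, Maf, a transcription factor of type 17 cells, at 595 and 751 CPM, and Capg at 978 and 859 CPM. Dapl1 and Ccl5 had 0 UMIs in these cells in both muscles, as had Lef1 and Ccr7, since the sets shared no cell. For S100a4, Cxcr6, Tmem176a, Maf and Capg the levels in the muscles were within 1.5-fold of each other. How many of all genes were this close was not counted.

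Other genes of the same cells differed between the muscles. Il7r was at 2110.5 CPM (1735 to 2544) in quadriceps and 919.7 CPM (772 to 1088) in diaphragm, and Klf2, a factor that drives exit from tissue, at 614 CPM (420 to 867) and 257 CPM (182 to 353). Pdcd1, the inhibitory receptor PD-1, was at 134 CPM (54.0 to 277) and 426 CPM (327 to 545), found in 3 of 10 and 15 of 23 cells. Samsn1, an adaptor protein of immune cells, was at 134 and 615 CPM, and Atf3, a stress-induced transcription factor, at 38.4 and 521 CPM. Lck, the kinase that starts receptor signalling, was at 115 CPM in quadriceps and had 0 UMIs in the 23 diaphragm cells, with a limit of 20.3 CPM. These are 10 and 23 cells of 1 library each, and the cells of a library are not replicates.

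The cells with neither that held a naive gene were described in the same way, with Lef1 as a gene that chose them. In the 21 quadriceps cells Lef1 was at 672 CPM (521 to 854) and Dapl1, a gene of resting naive T cells, at 412 CPM (295 to 558), with S100a4 at 0 UMIs. In the 5 diaphragm cells Lef1 was at 459 CPM (237 to 801), and Dapl1 at 38.2 CPM and S100a4 at 115 CPM, each from 1 cell. Of these cells 4 and 1 held Ccl5, where Ccl5 reached 2178 and 1300 CPM over the set.

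Counted per cell at equal depth, the lists gave the same picture. At 1000 UMIs, quadriceps cells with neither held a median of 3 of 14 naive genes and 1 of 18 residence genes, and diaphragm cells with neither held 1 and 5.5. CD8 cells held a median of 4 naive genes in both muscles, and 2 residence genes in quadriceps and 1 in diaphragm. CD4 cells held 4 and 3 naive genes. The cells with neither thus differed between the muscles while the CD8 cells had the same naive median.

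**Figure D3:**
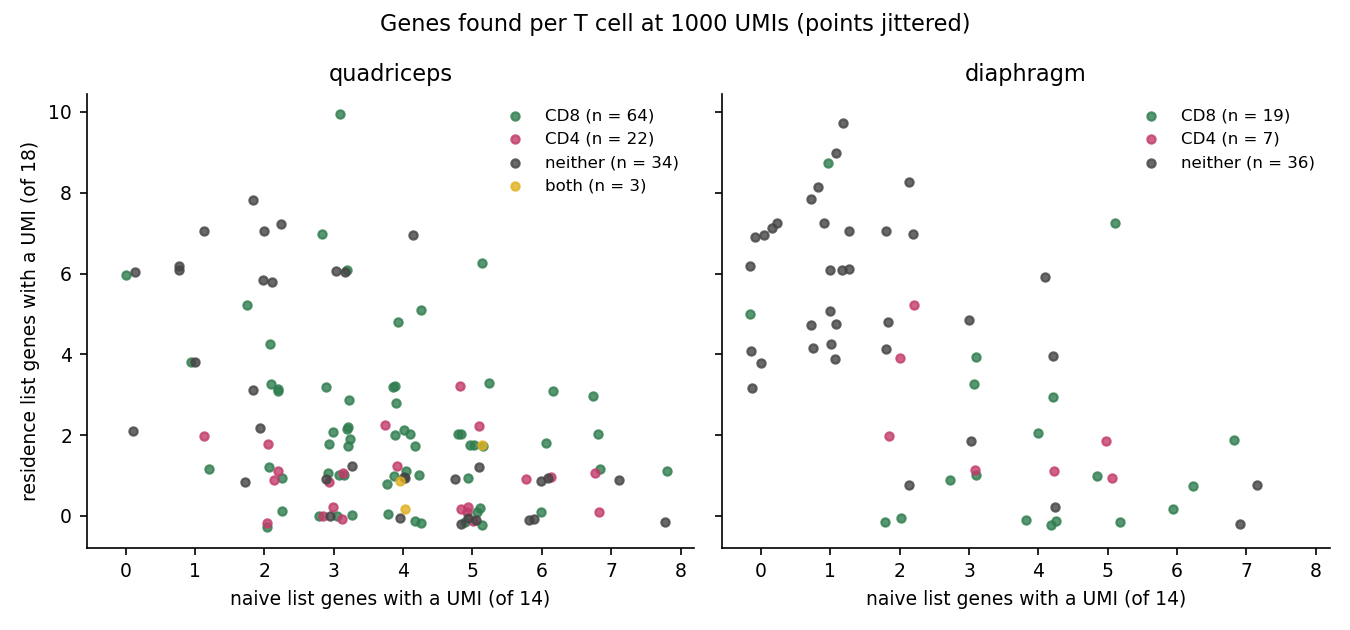
Each point is 1 T cell, thinned to 1000 UMIs, with the number of naive list genes found (x axis, of 14) and of residence list genes found (y axis, of 18), coloured by co-receptor class; points are jittered. The diaphragm cells with neither sit at a median of 1 naive and 5.5 residence genes, and the CD8 cells of both muscles at a median of 4 naive genes.

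Next, all T cells of diaphragm were set against all T cells of quadriceps. Of 1271 genes that reached 100 CPM in either muscle and had a UMI in at least 10 T cells, 143 (11.3%) were past 2-fold higher and 43 (3.38%) past 2-fold lower in diaphragm. The median log2 fold over all 1271 genes was 0.24. In FAPs of the same libraries, 82 of 1673 genes (4.9%) were higher and 42 (2.51%) lower. The FAP folds rest on 21540283 quadriceps and 23265447 diaphragm UMIs, against 662984 and 360134 in T cells. Folds from fewer UMIs scatter more, so these shares cannot be set against each other. Since the classes have different shares in the muscles, the T cell values mix the make-up of the T cells with levels within a class. The widest differences were at Samsn1, Atf3, Pdcd1 and Cd163l1 for diaphragm, and at Acta2 and other smooth muscle genes for quadriceps.

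Samsn1 was at 24.1 CPM (13.8 to 39.2) in quadriceps and 325 CPM (269 to 389) in diaphragm T cells, with a UMI in 13 of 123 and 30 of 62 cells. Pdcd1 was at 12.1 CPM (5.21 to 23.8) and 192 CPM (149 to 242), in 4 and 18 cells. Cd163l1 was at 39.2 CPM (25.6 to 57.5) and 386 CPM (324 to 456), in 5 and 21 cells. Diaphragm T cells held at least 9-fold more of each of these by their ratios of 13.5, 15.9 and 9.84. Of the diaphragm cells with a UMI, 27 of 30 for Samsn1, 16 of 18 for Pdcd1 and 20 of 21 for Cd163l1 were of the class with neither co-receptor.

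Tbx21, the transcription factor T-bet of type 1 responses, was at 6.03 CPM (1.64 to 15.4) and 106 CPM (74.7 to 145). Gch1, an enzyme of biopterin synthesis, was at 7.54 CPM (2.45 to 17.6) and 111 CPM (79.3 to 151), and had a UMI in 5 of 123 and 28 of 62 cells. Crem, a cyclic AMP responsive factor, was at 16.6 and 167 CPM, and Gadd45b, a stress-induced gene of T cell activation, at 93.5 and 649.8 CPM. The survival gene Bcl2a1d was at 10.6 and 117 CPM and has near-identical copies that can split reads. Hist1h2ap, a histone gene of dividing cells, was at 7.54 and 111 CPM, but 77.5% of its diaphragm UMIs came from 1 cell. Atf3 was at 19.6 CPM (10.4 to 33.5) and 278 CPM (226 to 338) in T cells and at 26.6 and 511 CPM in FAPs, so it was higher in diaphragm in both cell types.

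The genes lower in diaphragm were led by genes of smooth muscle contraction. Acta2, smooth muscle actin, was at 1412 CPM (1323 to 1505) in quadriceps T cells, with a UMI in 78 of 123 cells, and had 0 UMIs in 62 diaphragm T cells, at least 169-fold lower. Tagln was at 903 and 2.78 CPM, Tpm2 at 635 and 5.55 CPM, and Myl9 at 498 and 2.78 CPM. Myh11, Mylk, Mustn1, Cald1 and Igfbp5 followed. In FAPs Acta2 was at 916 CPM in quadriceps and 8.60 CPM in diaphragm, so it differed between the libraries outside T cells as well. In T cells 87.0% of its UMIs came from the 2 CD8 cells described above. Without the first of them Acta2 was at 598 CPM (539 to 661) in quadriceps, and without both at 196 CPM (163 to 234), with Tagln at 98.2 CPM and Tpm2 at 74.0 CPM. The part of free RNA in these values was not tested.

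Without the first of these cells T cell genes were among the next lower in diaphragm. Igfbp4, a gene of naive T cells, was at 311 CPM (269.6 to 358) in quadriceps and 41.7 CPM (23.3 to 68.7) in diaphragm. Slamf6, a receptor of lymphocytes, was at 182 and 22.2 CPM, and Dapl1 at 349 and 61.1 CPM. Pik3ip1, an inhibitor of PI3 kinase, was at 168 and 30.5 CPM, and Actn1 at 211 and 50.0 CPM. These levels lay at least 4-fold apart. All 5 were higher in quadriceps.

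**Figure D4:**
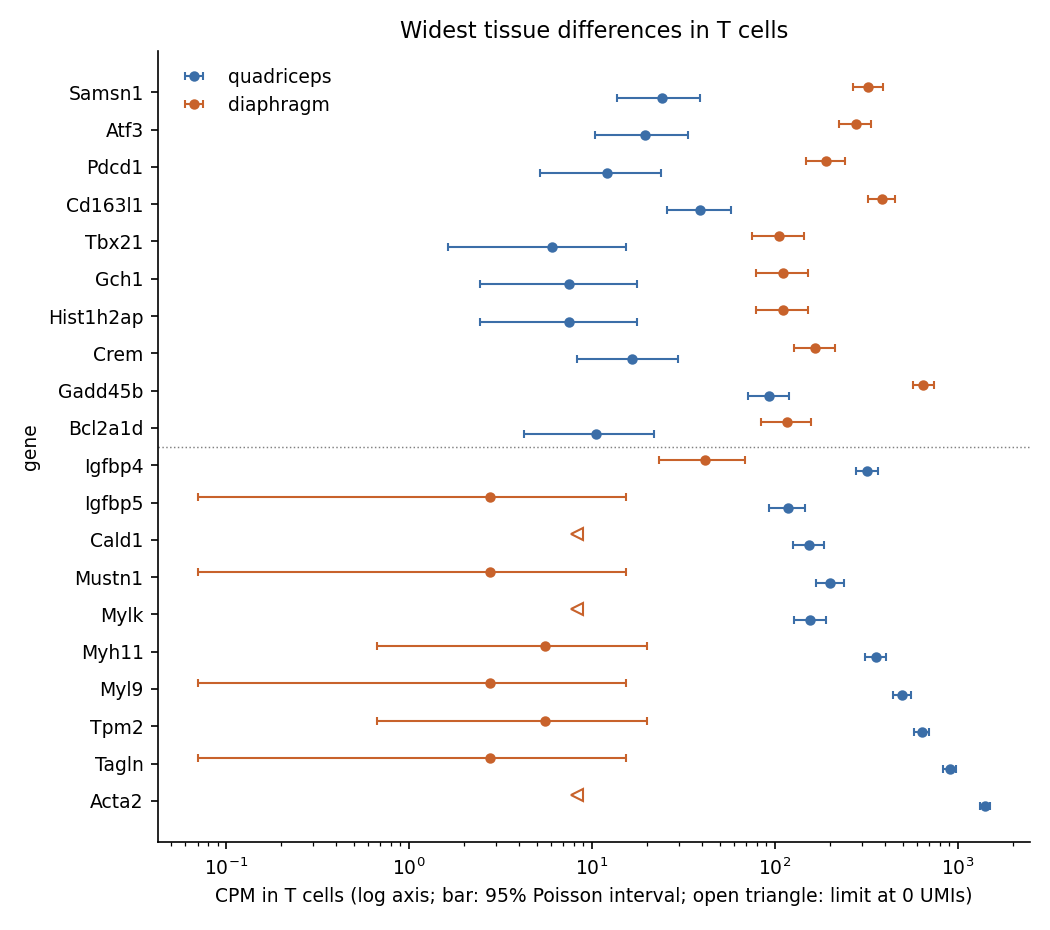
Level (x axis, CPM on a log axis) of the 10 genes furthest higher and the 10 furthest lower in diaphragm T cells, with 95% exact Poisson intervals; open triangles mark the limit for 0 UMIs. Samsn1 stands at 24.1 CPM in quadriceps and 325 CPM in diaphragm, and Acta2 at 1412 CPM in quadriceps and 0 UMIs in diaphragm.

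By list, 4 of 11 tested naive genes were lower in diaphragm T cells (Igfbp4, Dapl1, Actn1 and Lef1) and 0 higher, with a median log2 fold of -0.74 against 0.24 for all genes. Lef1 was at 410.3 CPM (363 to 462) in quadriceps and 194 CPM (152 to 246) in diaphragm. Ccr7 was not lower, at 226 CPM (191 to 265) and 339 CPM (281 to 404). Tcf7 was at 314 and 183 CPM, and Klf2 at 1637 and 1302 CPM, both within 2-fold.

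Residence and memory genes went the other way, with 6 of 13 tested genes higher and 1 lower in diaphragm and a median log2 fold of 0.85. S100a4 was at 479.6 CPM (428 to 535) and 2349 CPM (2193 to 2513), in 22 of 123 and 35 of 62 cells. In FAPs it differed in the opposite direction, at 464 and 27.6 CPM. Cxcr6 was at 125 CPM (99.7 to 155) and 605 CPM (528 to 691). Cd44 was at 55.8 and 214 CPM, Lgals1, galectin 1, at 504 and 1416 CPM, S100a6 at 732 and 2471 CPM, and Ahnak at 222 and 503 CPM. The gene past 2-fold lower was Itga4, an integrin chain, at 208 and 72.2 CPM.

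All 4 tested type 17 genes were higher in diaphragm T cells, with a median log2 fold of 1.90. Maf was at 83.0 CPM (62.5 to 108) and 389 CPM (327 to 459), Blk at 31.7 and 125 CPM, and Il18r1, the interleukin 18 receptor, at 98.0 and 275 CPM, beside Cd163l1 above. The list's other members were below the minimum. Il17a had 1 UMI in quadriceps and was at 77.7 CPM (51.7 to 112) in 5 diaphragm cells, a ratio between 8.52 and 2108.

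Of 7 tested cytotoxic genes 3 were higher and 1 lower in diaphragm, with a median log2 fold of 0.74 against 0.24 for all genes. Over all 1271 genes 11.3% were higher and 3.38% lower. The higher ones were Tbx21, Klrk1 at 48.3 and 186 CPM, and Ifng at 70.9 CPM (52.1 to 94.3) and 303 CPM (249 to 365). Ifng was found in 10 and 8 cells, and 66.1% of its diaphragm UMIs came from 1 cell. Klrd1, a receptor of NK and CD8 cells, was lower, at 155 and 50.0 CPM. Ccl5 was at 1836 and 3074 CPM, or at 1360 and 1100 CPM without the 2 cells with the most in each muscle, Nkg7 at 388 and 333 CPM and Ctsw at 164 and 169 CPM, all within 2-fold.

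Of 8 tested cytokine and receptor genes 5 were higher in diaphragm and 0 lower. Ifngr1, a chain of the interferon gamma receptor, was at 268 CPM (230.5 to 311) and 847 CPM (755 to 947), and had a UMI in 73 of 123 and 53 of 62 cells. Il2rb, a receptor chain for interleukins 2 and 15, was at 45.2 and 136 CPM, Tnf at 34.7 and 103 CPM, Ifnar1 at 43.7 and 103 CPM and Tgfb1 at 90.5 and 199.9 CPM. Of 12 tested receptor signalling genes 1 was higher, Zap70 at 69.4 and 155 CPM, and 0 lower. The interferon list had 2 tested genes and MHC class I had 6, none of them past 2-fold. Over all 1271 genes 11.3% were higher and 3.38% lower, so these counts do not set the signalling, interferon and MHC lists apart. Capg and Ikzf2 of the regulatory T cell list and Icos of the CD4 list were higher, at 93.5 and 386 CPM, 66.4 and 164 CPM, and 63.3 and 194 CPM.

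UMIs of the division gene Mki67 were found in diaphragm alone. This gene, a marker of dividing cells, had 0 UMIs in 123 quadriceps T cells and was at 86.1 CPM (58.5 to 122) in diaphragm, at least 19.0-fold higher, from 5 cells that were all of the class with neither co-receptor. With 0 of 123 quadriceps cells, the share of cells with a UMI can be up to 2.44%, which sets no limit on the share that expresses the gene. Stmn1, which acts on microtubules, was at 33.2 and 242 CPM, and Hmgb2 at 275 and 614 CPM. These were the 2 of 3 tested proliferation genes past 2-fold. In diaphragm the 5 cells with Mki67 held 87.4% of the Stmn1 UMIs and 52.5% of the Hmgb2 UMIs. Without them Stmn1 was at 35.7 CPM (17.8 to 63.9) and Hmgb2 at 341 CPM (279 to 412), both within 2-fold of quadriceps.

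Immediate early genes, which rise within minutes to hours of stimulation or of tissue digestion, differed less between muscles in T cells than in FAPs in their median. In T cells 5 of 14 tested were higher in diaphragm and 1 lower, with a median log2 fold of 0.37, while in FAPs 14 of 15 were higher, with a median of 2.38. Jun was at 1504 CPM (1412 to 1600.1) in quadriceps and 633 CPM (554 to 721) in diaphragm T cells, but at 633 and 3332 CPM in FAPs. Fos was at 555 and 486 CPM in T cells and at 269 and 2661 CPM in FAPs. Junb was higher in diaphragm in both, at 1341 and 2927 CPM in T cells and 292 and 2094 CPM in FAPs. Fosb, Nr4a1, Dusp1 and Atf3 were the other higher genes in T cells, with Nr4a1, a gene of receptor stimulation, at 93.5 and 344 CPM.

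Heat shock genes showed the same contrast. None of 10 tested were past 2-fold over all T cells, with a median log2 fold of 0.40, and 7 of 10 were higher in diaphragm FAPs, with a median of 1.72. Within CD8 cells 3 of 10 were higher in diaphragm, with a median of 0.49, against 11.1% higher and a median of 0.13 for all genes. Within cells with neither 1 was lower and 0 higher, with a median of 0.046. For all genes in that class 4.64% were lower and 12.9% higher, with a median of 0.17. Hspa1a was at 3545 CPM (3403 to 3691) and 3124 CPM (2944 to 3312) in T cells and at 1005 and 4172 CPM in FAPs. Hspa1b is nearly identical to it, and reads may be split between them. The difference between T cells and FAPs was not tested, since each fold rests on 1 library per muscle.

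**Figure D5:**
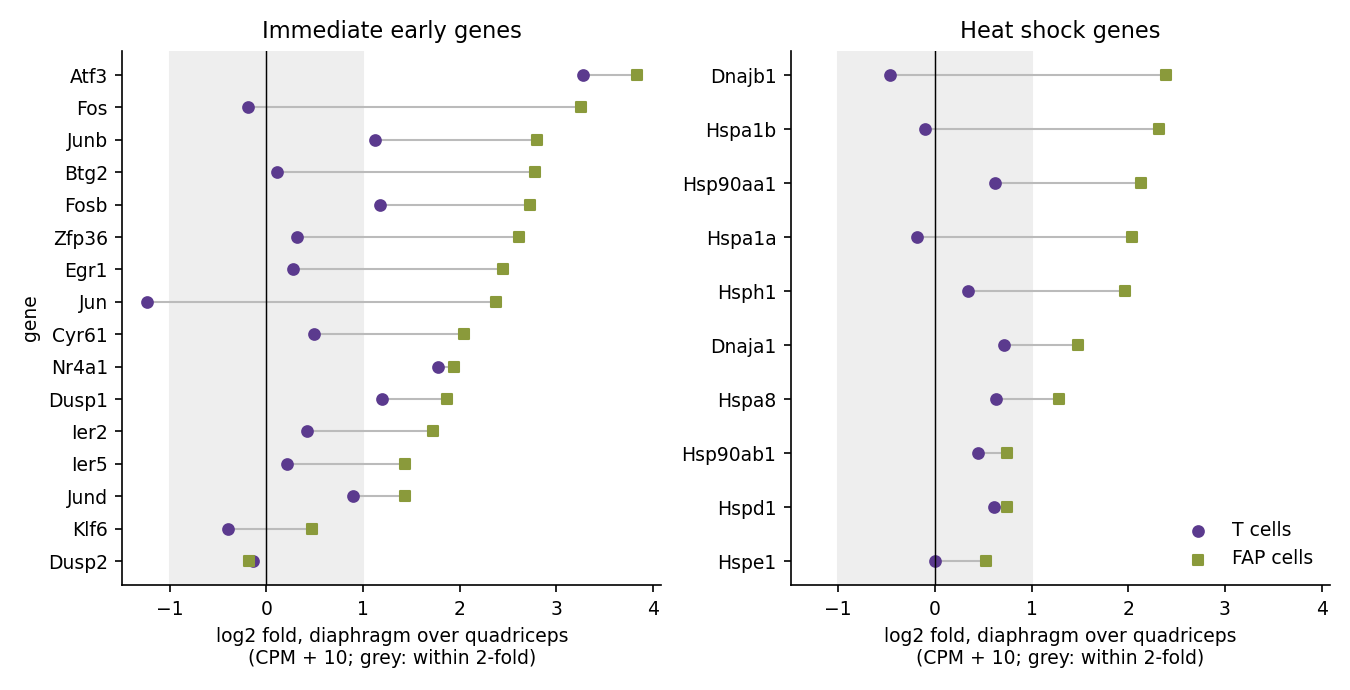
Log2 fold of diaphragm over quadriceps (x axis, on CPM + 10) of each immediate early gene (left) and heat shock gene (right) in T cells and in FAPs, with the grey band marking folds within 2-fold. Jun lies at -1.24 in T cells and 2.38 in FAPs, and Atf3 at 3.28 and 3.83.

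Within CD8 cells, 135 of 1217 genes (11.1%) were higher and 69 (5.67%) lower in diaphragm, with a median log2 fold of 0.13. Of 11 tested naive genes 1 was higher and 3 lower, with a median of 0.11, so this list did not shift as it did over all T cells. Ccr7 was the higher one, at 239 CPM (192 to 294) in quadriceps and 798 CPM (643 to 979) in diaphragm CD8 cells, in 38 of 64 and 15 of 19 cells. The lower ones were Dapl1 at 376 and 174 CPM, Igfbp4 at 249.6 and 52.1 CPM, and Actn1 at 292 and 121 CPM. Lef1 was at 347 and 382 CPM. Genes of the list thus differed in both directions in the same cells.

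The genes furthest higher in diaphragm CD8 cells were Gch1, Kdm2b, Dusp5, Got1, Ppp1r16b, Dusp10, Il4ra, Eif1a, Nr3c1 and Vps37b. Gch1 was at 5.25 CPM (0.636 to 19.0) and 130.1 CPM (72.8 to 215), with a UMI in 2 of 64 and 12 of 19 cells. Dusp5 and Dusp10, phosphatases that switch off MAP kinases, were at 21 and 182 CPM and at 52.5 and 312 CPM. Il4ra, the interleukin 4 receptor, was at 26.3 and 174 CPM, and Nr3c1, the glucocorticoid receptor, at 36.8 and 208 CPM. Vps37b, a sorting protein, was at 326 CPM (271 to 388) and 1518 CPM (1302 to 1761). Each of the 10 was at least 4-fold higher by its ratio.

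Of receptor signalling genes 3 of 13 were higher in diaphragm CD8 cells and 0 lower, Cd27 at 108 and 269 CPM, Txk at 260.1 and 589.9 CPM, and Lat at 168 and 347 CPM. Of 8 cytokine and receptor genes 4 were higher, Il4ra, Il21r at 42.0 and 217 CPM, Ifngr1 at 205 and 737 CPM, and Ifnar1. Ccl5 was at 2567 and 7842 CPM, with a UMI in 15 of 64 and 11 of 19 cells, and had like levels in the muscles without the 2 cells with the most, as given above. Klrd1 was the cytotoxic gene past 2-fold lower. Acta2 again led the lower genes, at 2283 CPM in quadriceps and 0 UMIs in diaphragm, but 93.7% of its UMIs lay in 2 of the 64 quadriceps cells. Without these it was at 162 CPM (122 to 211). Crip1, of the residence list, was at 1526 CPM (1405 to 1656) and 589.9 CPM (458 to 748).

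Within cells with neither co-receptor, 189 of 1466 genes (12.9%) were higher and 68 (4.64%) lower in diaphragm, with a median log2 fold of 0.17. Naive genes were lower here, 8 of 11 tested with a median of -1.84 and 0 higher. Lef1 was at 396 CPM (307 to 503) in quadriceps and 55.0 CPM (28.4 to 96.1) in diaphragm, Ccr7 at 129.9 and 22.9 CPM, and Klf2 at 1305 and 358 CPM. Dapl1 was at 278 CPM (204 to 369) in 10 of 34 quadriceps cells and had 1 UMI in diaphragm, a ratio between 0.00041 and 0.0966. As the counts of cells by set show, this class held different shares of naive-set cells in the muscles.

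The genes furthest higher in diaphragm cells with neither were Top2a, Atf3, Nav2, Ier5l, Hist1h2ap, Tbx21, Cdkn1a, Samsn1, Tnfsf11 and Ifng. Tnfsf11, the cytokine RANKL, was at 11.8 CPM (1.43 to 42.7) in quadriceps and 142 CPM (96.6 to 202) in diaphragm, in 2 of 34 and 14 of 36 cells. Cdkn1a, the cell cycle inhibitor p21, was at 11.8 and 183 CPM, in 2 and 16 cells. Nav2 had 0 UMIs in quadriceps and 124 CPM (81.6 to 180.1) in 13 of 36 diaphragm cells, at least 6.99-fold higher. Top2a, which untangles DNA in dividing cells, came from 4 diaphragm cells at 133 CPM. Among the lower genes Fam169b was at 100.4 CPM in quadriceps with 0 UMIs in diaphragm, at least 7.30-fold lower, and Gm8369 and Ly6c1 were at 183 and 9.17 CPM and at 171 and 13.8 CPM. Lck was at 219 CPM (154 to 301) and 64.2 CPM (35.1 to 108).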

How the data were processed

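Single cells were captured on a droplet platform, and per the labels the authors processed the reads with Cell Ranger 3.0.0 and Seurat on the mm10 (GRCm38) build. The deposited values were raw counts of UMIs for 27998 genes and each barcode, with 1 library per muscle. Symbols were as deposited, and positions came from GENCODE M21 for 27722 gene IDs. Some genes are not reported here and were left out of the lists and sets. Members and gene lists were chosen with earlier results of these data known. UMIs were summed per class and divided by the class total (CPM). Folds used log2(CPM + 10), and genes past 2-fold were counted among those with at least 100 CPM in the higher class and a UMI in at least 10 T cells. No test was made, since cells are not replicates. The script was tested on simulated data. Genes named were the given markers, the list members with the most UMIs or on which small counts turn, and the 10 widest folds per comparison and direction. The comparisons of cells with neither co-receptor, the muscle comparisons within a class, the sets, the Ccl5 split and levels without the cells that held most UMIs of a gene were added after values were seen, as were the members described in them. A count of 0 was given a limit of 3 counts. Thinning drew 1000 UMIs per cell with a fixed seed. Doublets were kept, and Scrublet (scanpy 1.11.5) was an alternative. Python 3.11.15, numpy 2.4.6, scipy 1.17.1 and pandas 2.3.3 were used.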

Additional observations from a re-analysis of the deposited data

How the results depend on the processing

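Direction was followed for the log2 folds of chosen genes between all T cells of the muscles. None of those past 2-fold reversed in the alternative runs that gave folds. Directions within classes and sets, and of folds within 2-fold, were not followed in this way. Ccl5 over all T cells, within 2-fold, was higher in diaphragm (3074 against 1836 CPM) and, without the 2 cells of each muscle with the most, an alternative chosen after seeing the data, lower (1100 against 1360 CPM). In CD8 cells, where it was past 2-fold higher in diaphragm (7842 against 2567 CPM), the muscles were then level (1743 against 1744 CPM). A mitochondrial limit of 5% left 28 quadriceps and 13 diaphragm T cells (1.29% and 0.781% of barcodes), with 261 genes higher and 82 lower in diaphragm T cells, 103 higher and 58 lower in CD8 than CD4 cells, and 105 higher and 35 lower in cells with neither than in CD8 cells. A limit of 10% gave a quadriceps T cell share of 3.53%. Thinned to 1000 UMIs, CD8, CD4 and neither shares were 35.0%, 7.32% and 57.7% in quadriceps and 17.7%, 3.23% and 79.0% in diaphragm. The gene counts were then 249 and 80 between muscles, 123 and 69 for CD8 against CD4, and 40 and 25 for neither against CD8. With at least 2 co-receptor UMIs required, CD4 and neither shares were 4.07% and 48.0% in quadriceps and 1.61% and 72.6% in diaphragm, 68 genes were higher and 54 lower in CD8 than CD4 cells, and 36 were higher in cells with neither. A pseudocount of 50 CPM gave 90 and 28 genes between muscles, 6 lower in CD8 than CD4 cells and 5 lower in cells with neither. With no minimum other than 1 UMI the counts were 641 and 395, 381 and 163, and 303 and 64. Thinning, the 5% limit and the co-receptor minimum each leave fewer UMIs or cells behind a fold. The cause of the changed counts was not otherwise tested.

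Among single genes the smooth muscle genes moved most. Without the cells marked by Scrublet, the log2 fold was -4.37 for Acta2 and -3.08 for Tagln, and Igfbp4 was at -2.66. Removing shared barcodes, the cell richest in smooth muscle UMIs, all cells with at least 20 of these, or cells with Mki67, 4 alternatives chosen after seeing the data, moved no count of genes by over 1.5 times and no share beyond its interval. No paired analysis was possible because each muscle has 1 library. The depth limits genes under about 100 CPM and the diaphragm CD4 cells most.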
